A study of Brassica oleracea with 4 samples.

Results

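Pathogenesis-related (PR) proteins are defence proteins that plants make and mostly secrete after attack or after a hormone signal of attack. Described here are 6 genes of broccoli (Brassica oleracea) annotated to such proteins or to their families, out of 135 genes in the table. They are PR1 (Bo3g088360), PR-2 (Bo4g111320), PR-4 (Bo3g058570), a putative chitinase (Bo4g020920), a chitinase family gene (Bo3g028270) and a CAP superfamily gene (Bo1g007900). They were chosen by identifier, with their values known, to set genes of like annotation that went apart beside each other. Their differences are therefore a description and not a test.

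RNA sequencing was done on hypocotyls, the stems of the seedling below its first leaves, from microgreens 10 days old. One group was sprayed daily with calcium chloride at 10 mmol/L and the other daily with water alone, with 2 labelled libraries per spray. Both groups were raised at 25 °C on hydroponic pads, kept dark for 4 days after sowing and then given daily light. The cultivar is not given in the labels, nor whether the libraries of a group came from separate trays. The table gives 1 RPKM per gene and group, which is a read count scaled to gene length and to the total of mapped reads. The values below thus have no replicate error, their depth is unknown, and no difference between the sprays could be tested.

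PR1 belongs to the CAP superfamily of secreted proteins, which is named in part after it, and in Arabidopsis its transcript is a standard readout of salicylic acid signalling. PR-2 proteins are glucanases that cut the beta-glucan of fungal walls and also callose. Chitinases cut chitin, another polymer of fungal walls, and the PR-4 protein of Arabidopsis is a hevein-like protein that can bind chitin. In Arabidopsis PR1 and PR-2 are linked to salicylic acid, while PR-4 is better known for its response to ethylene and jasmonate.

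With the calcium spray 4 of the 6 genes were higher, among them all 3 that carry a PR name, and 2 were lower. Of all genes in the table, 52.6% were at least 2-fold higher with calcium and 47.4% were at least 2-fold lower. Every gene of the table met that limit, so the 4 and 2 say nothing beyond the choice of genes. The median log2 ratio of calcium over water was 1.54 for the 6 genes, 1.58 for the 71 higher genes and 1.04 for all 135. With no gene under a 2-fold difference, the medians over both directions mainly reflect which direction holds more genes. The sum of the 6 RPKM values was 1507 with calcium and 598 with water. Most of both sums came from 1 gene, PR-4, with 65.5% in the calcium group and 55.7% in the water group.

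**Figure D1:**
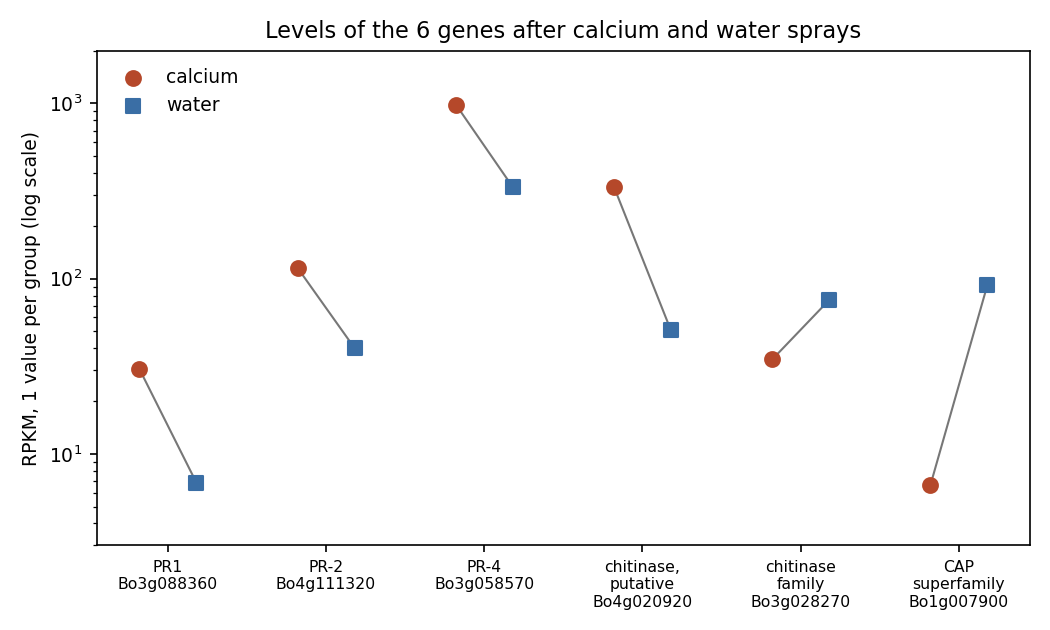
RPKM of each of the 6 genes (vertical axis, log scale) in the calcium group (circles) and the water group (squares), with 1 value per group and a line joining the values of a gene. PR1, PR-2, PR-4 and the putative chitinase stand higher with calcium, while the chitinase family gene and the CAP superfamily gene stand lower.

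Among the PR-named genes, PR1 was the least abundant. It was at 30.5 RPKM in the calcium group and 6.85 RPKM in the water group, a ratio of 4.45. Its difference of 23.6 RPKM was close to the smallest in the table, 21.5 RPKM, and 68th in size among the 71 higher genes, while its ratio was 19th. The ratio of PR1 rests on a low value with water. With 5 RPKM added to both values it was 2.99, the largest proportional drop among the 4 higher genes. PR1 had an adjusted p-value of 0.0179 in the authors' deposited table.

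PR-2, annotated as beta-1,3-glucanase 2, was at 115 RPKM with calcium and 40.1 RPKM with water, a ratio of 2.87. PR-4 was at 987 RPKM with calcium and 333 RPKM with water, a ratio of 2.96. These ratios were next to each other in the order of the table, 38th and 37th among the higher genes, and close to the median of the higher genes, 2.98. The levels were far apart. PR-4 was the 4th most abundant gene of the table with calcium and the 16th with water, whereas PR-2 was 50th with calcium and 88th with water. The 653 RPKM that PR-4 had more with calcium was the second largest gain in the table. The authors' deposited table gave an adjusted p-value of 3.62e-07 for PR-2 and of 0 for PR-4. A value of 0 was given for 41 of the 135 genes, so it does not set a gene apart.

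**Figure D2:**
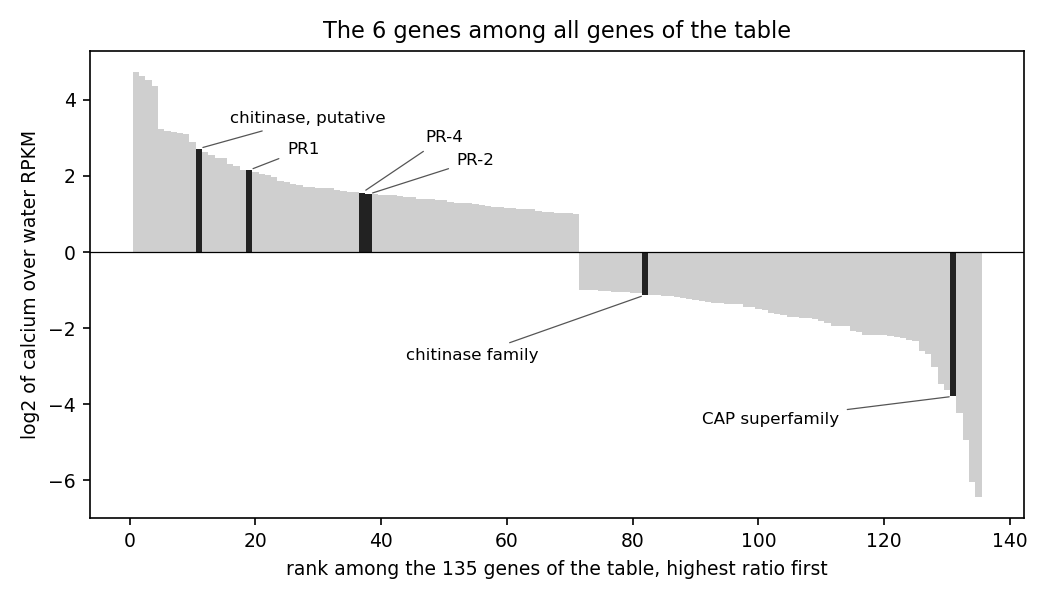
log2 of calcium over water RPKM (vertical axis) for the 135 genes of the table, ordered from the highest to the lowest ratio (horizontal axis). The 6 genes are dark bars: PR-4 and PR-2 lie side by side in the middle of the higher genes, and the CAP superfamily gene is the 5th lowest of all.

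The chitinases went in opposite directions. The putative chitinase (Bo4g020920) was at 333 RPKM with calcium and 50.6 RPKM with water. This is 6.59-fold higher, the largest ratio of the 4 higher genes and 11th among the 71. The chitinase family gene (Bo3g028270) was at 34.6 RPKM with calcium and 75.5 RPKM with water, or 2.19-fold lower. That is 54th among the 64 lower genes and close to the 2-fold limit of the table. With 5 RPKM added to both values it was 2.04-fold lower. The authors' deposited table gave adjusted p-values of 0 for the putative chitinase and 0.0295 for the chitinase family gene, and the second was the 8th highest in the table.

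The order of the chitinases was thus reversed between the sprays. With calcium the putative chitinase had 9.65 times the RPKM of the family gene, and with water it had 0.670 times. Its share of their summed RPKM was 90.6% with calcium and 40.1% with water. The sum itself was 368 RPKM with calcium and 126 RPKM with water, a ratio of 2.92, so the lower value of the family gene was outweighed. The difference between their log2 ratios was 3.85. The genes match separate Arabidopsis genes, AT2G43570 and AT2G43590, whose codes lie close together on one chromosome. No other gene of the table matched either of them, or the Arabidopsis gene of any of the other 4. Whether reads were shared with copies outside the table was not tested.

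PR1 and the CAP superfamily gene also went apart, and by more. The CAP gene (Bo1g007900) was at 6.62 RPKM with calcium and 91.8 RPKM with water, or 13.9-fold lower. It was the 2nd most abundant of the 6 genes with water and the least abundant with calcium. With calcium PR1 had 4.60 times the RPKM of the CAP gene, and with water 0.0746 times. PR1 made up 82.2% of their summed RPKM with calcium and 6.94% with water. Unlike that of the chitinases, this sum was lower with calcium, at 37.1 RPKM against 98.7 RPKM with water. The log2 ratios differed by 5.95, and by 4.64 with 5 RPKM added, because each gene had a low value in 1 group. PR1 matches AT2G14610 and the CAP gene AT4G33720. The shared superfamily does not show that the proteins do the same work. In the authors' deposited table the CAP gene had an adjusted p-value of 0 and stood in cluster 2, which holds 8 genes, all at least 8.13-fold lower. The chitinase family gene was in cluster 3 and the 4 higher genes in cluster 1, which holds all 71 higher genes of the table.

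**Figure D3:**
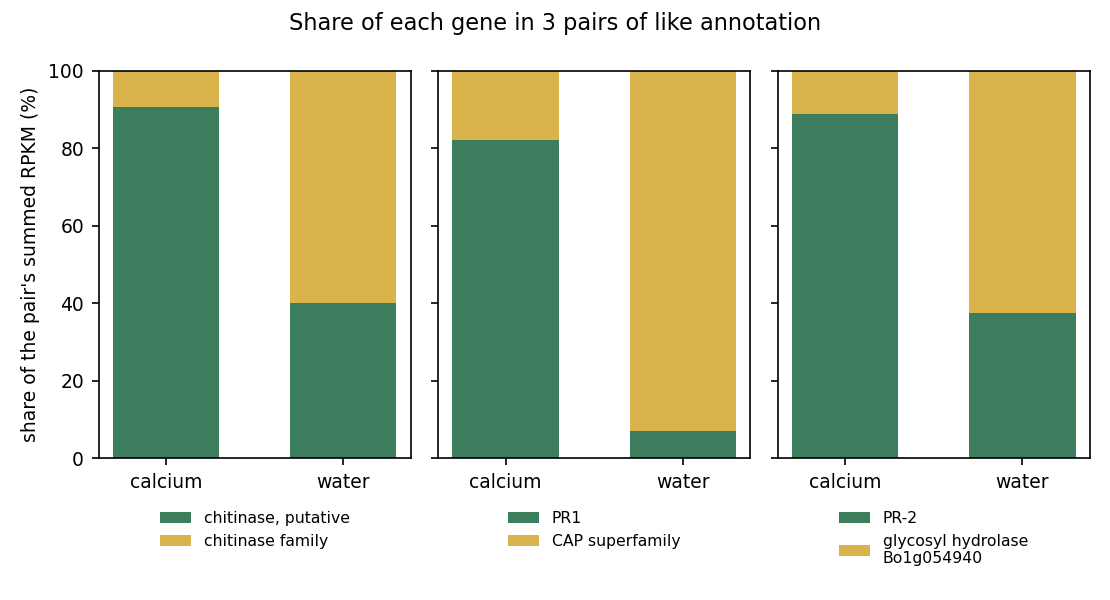
Share of each gene in the summed RPKM of its pair (vertical axis, percent), with calcium on the left and water on the right of each panel. In these 3 pairs the gene with the larger share with calcium has the smaller share with water, as for the putative chitinase with 90.6% and 40.1%; the 4th pair compared, PR-2 and BGLU30, is not shown and kept its order (PR-2 at 27.2% with calcium and 20.9% with water).

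PR-2 was set beside the other table genes annotated as glycosyl hydrolases, the broad class of sugar-cutting enzymes to which glucanases and chitinases belong. Bo1g054940 matches AT4G16260, known in Arabidopsis as a beta-1,3-glucanase like PR-2. It was at 14.6 RPKM with calcium and 67.0 RPKM with water, or 4.59-fold lower. PR-2 had 7.89 times its RPKM with calcium and 0.598 times with water. Their sum was 130 RPKM with calcium and 107 RPKM with water, a ratio of 1.21, while the share of PR-2 was 88.7% with calcium and 37.4% with water. The log2 ratios differed by 3.72. BGLU30 (Bo8g094910), a beta-glucosidase, was at 308 RPKM with calcium and 152 RPKM with water, 2.02-fold higher and so on the same side as PR-2. BGLU30 was more abundant than PR-2 in both groups, by 2.67 times with calcium and 3.79 times with water, and its log2 ratio was 0.50 below that of PR-2. Its log2 ratio of 1.02 is just under the table's median of 1.04, so subtracting that median puts it below 0. A further beta-glucosidase gene, BGLU18 (Bo6g028090), whose annotation the list words missed and which was named after its values were seen, went the other way. It was at 7.67 RPKM with calcium and 38.2 RPKM with water, or 4.98-fold lower.

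Taken by level, the order of the 6 genes differed between the sprays in every place but the first. With calcium it ran PR-4, putative chitinase, PR-2, chitinase family gene, PR1 and CAP gene. With water it ran PR-4, CAP gene, chitinase family gene, putative chitinase, PR-2 and PR1. RPKM is scaled to length, so levels of separate genes can be set side by side, but no source used here gives the lengths the authors used. Without values per library it is not known which neighbours in these orders differ beyond their spread. In ratio, the closest neighbours with calcium were the chitinase family gene at 34.6 RPKM and PR1 at 30.5 RPKM. With water they were the CAP gene at 91.8 RPKM and the chitinase family gene at 75.5 RPKM.

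Among the 102 other annotated genes, the most similar to each member was sought by the distance between log2(RPKM + 1) values over the 2 groups. The closest match of all was that of the chitinase family gene to Bo9g180100, annotated as a methyltransferase, at a distance of 0.041. PR1 was closest to Bo3g023070, of a heavy metal transport and detoxification family, at 28.7 RPKM with calcium and 6.62 RPKM with water (distance 0.095). The putative chitinase was closest to the lipid transfer protein gene LTP4 (Bo2g026820), at 315 RPKM with calcium and 62.9 RPKM with water (distance 0.32). For PR-2 it was DMR6 (Bo2g159320), whose Arabidopsis counterpart breaks down salicylic acid, at 114 RPKM with calcium and 50.6 RPKM with water (distance 0.33). PR-4 was closest to the methyltransferase gene Bo6g109010 (distance 0.35). The CAP gene had no near match: the closest, the tonoplast channel gene Bo7g077600, was at a distance of 1.05. Over 2 values such a likeness describes level and ratio alone.

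Other genes of the defence pathways were taken from lists of annotation words. All 6 genes of the salicylic acid list were higher with calcium, as PR1 and PR-2 were, against 52.6% of all genes in the table. Their median log2 ratio was 1.97, beside 1.58 for the 71 higher genes and 1.04 for the whole table. They include Bo9g167830, a GH3 gene annotated as auxin-responsive, which was 26.6-fold higher. It was listed by the word GH3 and matches AT5G13320. Another is the salicylic acid synthesis gene ICS1 (Bo6g086860), which was 8.97-fold higher. Also listed is the transcription factor gene WRKY70 (Bo6g071110), which in Arabidopsis acts in salicylic acid signalling. It was at 35.7 RPKM with calcium and 8.62 RPKM with water. The rest are DMR6, a further ICS1 copy (Bo2g082320) and SAG13 (Bo9g166530), a senescence-associated gene matched by the word SAG. The 6 genes match 5 Arabidopsis genes. Defensins, small antifungal proteins, were a list apart from the salicylic acid and the jasmonate words, so their place here ties them to neither. Both genes matched as defensins were higher, at 8.58-fold and 3.20-fold, and so was PDF1.1 (Bo2g086460) at 2.65-fold, which the words missed.

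The 9 genes of trypsin and other protease inhibitors, lectins and a knottin lay on the other side, with the chitinase family gene and the CAP gene. These 9 genes match 7 Arabidopsis genes, and inhibitors of other kinds were not on the list. All 9 were lower with calcium, against 47.4% of all genes in the table. Their median log2 ratio was -2.24, beside -1.64 for the 64 lower genes. The lowest were annotated as Kunitz family trypsin and protease inhibitors, at 30.6-fold, 11.0-fold and 6.07-fold lower. The 1 gene matched for jasmonate, the reductase gene OPR1 (Bo2g091100), was 2.73-fold lower. It was listed by the word oxophytodienoate in its annotation, which does not show that it acts in jasmonate synthesis. VSP2 (Bo2g159220), a jasmonate marker in Arabidopsis that the words missed, was 4.55-fold lower. PR-4, linked above to ethylene and jasmonate, was 2.96-fold higher, so the genes linked to jasmonate did not all go the same way. The defensins, which were higher, were not counted with the jasmonate genes. PDF1.1 and VSP2 were named after their values were seen. The putative chitinase and the knottin gene Bo4g020910 carry consecutive identifiers, all 135 identifiers ending in 0, yet they went apart. The knottin gene was at 44.7 RPKM with calcium and 213 RPKM with water, or 4.76-fold lower, beside the 6.59-fold higher chitinase. No source used here gives their positions in the genome.

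**Figure D4:**
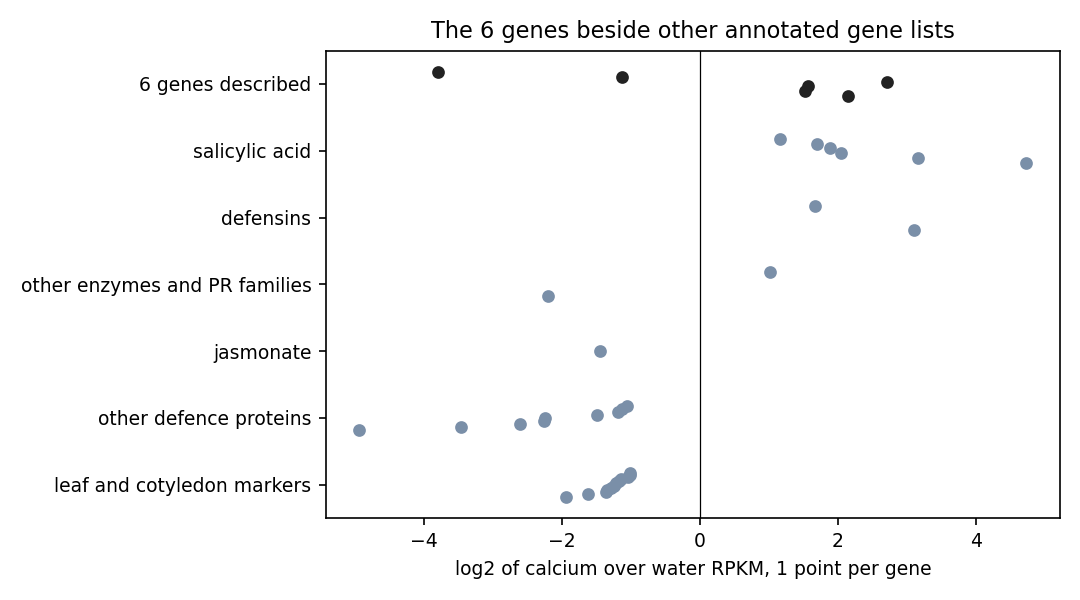
log2 of calcium over water RPKM (horizontal axis), 1 point per gene, for the 6 genes and for other lists of the table (rows); the enzyme and PR row leaves the 6 genes out. The 6 salicylic acid genes and both defensins lie above 0. The 9 other defence proteins and the 12 genes listed as leaf markers lie below 0, and the 6 genes lie on both sides.

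Some genes of the table were matched by annotation words as markers of other tissues. The words for leaf and cotyledon matched 12 genes of the photosystem antennae, photosystem I and RuBisCO. All 12 were lower with calcium, against 47.4% of all genes in the table. Their median log2 ratio was -1.23, a smaller drop than the -1.64 of the 64 lower genes. Quantile normalization puts the most abundant of them, Bo4g182560, at a log2 ratio of 0 by construction. Their summed RPKM was 7147 with calcium and 15889 with water, and none was at 0 in a group. The root marker RGF9 (Bo2g166400) was at 16.2 RPKM with calcium and 54.3 RPKM with water. The words for seed and embryo markers matched 2 genes, both higher with calcium, with a summed RPKM of 426 against 144 with water. Most of that sum is Bo9g120390, at 376 RPKM with calcium and 142 RPKM with water, which matched through a superfamily name that lipid transfer proteins share. The other is the late embryogenesis gene M17 (Bo4g190800), at 50.1 RPKM with calcium and 2.42 RPKM with water. The part of other tissues in the values of the 6 genes was not tested. Nor was it tested whether the hypocotyls, grown in light, made the transcripts of the 12 genes themselves. In such bulk samples fewer cells of a type and less RNA per cell cannot be told apart. The table lists only genes that differed, so the labelled tissue could not be checked against markers of hypocotyl cells.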

How the data were processed

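The authors deposited 1 table of 135 genes with an RPKM for the control and for calcium. Its control was read as water, since the labels name no other spray that was sequenced beside calcium. Per the file headers, the table also holds log10 RPKM values, signed fold changes and differences, an adjusted p-value under a false discovery rate heading, and a cluster number, a score of the authors' own. The log10 columns were checked to be the log10 of the RPKM columns in both groups. CASAVA is named, with no version, in the submitters' processing notes. Not given in the sources used here are the aligner, the build, the annotation, the test and how libraries were combined. Library totals are not given either, so depth is unknown.

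The 2 group values, their difference and their ratio, calcium over water, were computed with nothing added unless stated. The planned limma test needs values per library and was not run. The 6 genes, the 8 word lists and the 4 pairs were chosen with earlier results of these data known. All 6 genes are named, with up to 3 genes per list by size of ratio and the 1 nearest gene by distance. The other genes in the text, such as the knottin, were chosen after their values were seen. The reference gene table at hand listed 0 of the 6 identifiers. The ratio and count functions were tested on simulated data. Alternatives were 1 or 5 RPKM added, a 3-fold limit, filters, a deposited adjusted p under 0.001, and scaling. Python 3.11.15, NumPy 2.4.6, pandas 2.3.3 and matplotlib 3.10.9 were used.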

Additional observations from a re-analysis of the deposited data

How the results depend on the processing

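Adding 1 or 5 RPKM to both values cannot change the sign of a ratio, and subtracting the table's median of 1.04 cannot turn a lower gene, so these say nothing of how stable the directions are. Both scalings used only the 135 selected genes and do not normalize the libraries. A 3-fold limit left 2 of the 4 higher and 1 of the 2 lower genes, and 34 higher and 34 lower genes of the table. A minimum of 10 RPKM in both groups left 3 higher genes and 1 lower gene, the chitinase family gene. Of the table it left 55 higher and 52 lower genes. A deposited adjusted p under 0.001 left 3 higher genes and 1 lower gene, the CAP gene. Of the table it left 49 higher and 44 lower genes. Subtracting the median left 2 of the 4 higher genes past 2-fold, PR1 and the putative chitinase, and 21 higher genes of the table. For the 6 genes the scalings were chosen for the counts after seeing the data. All other counts were within 1.5 times. The difference of log2 ratios between the chitinases was 3.80 with 1 RPKM added and 3.63 with 5. For PR1 minus the CAP gene it was 5.61 and 4.64, for PR-2 minus Bo1g054940 3.62 and 3.29, and for PR-2 minus BGLU30 0.49 and 0.42. No paired analysis was possible because the table gives 1 value per group, and for that reason no library could be left out. Depth cannot be judged from RPKM, which limits PR1 and the CAP gene most, each under 10 RPKM in 1 group.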
